A study of Mus musculus with 8 samples.

Results

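PGC-1, the estrogen-related receptors (ERR) and the peroxisome proliferator-activated receptors (PPAR) form, with the nuclear respiratory factors, the transcriptional circuit that sets the amount of mitochondria in muscle. The 10 genes described here are the coactivators Ppargc1a and Ppargc1b, the receptors Esrra, Esrrb, Esrrg, Ppara and Ppard, the DNA-binding factors Nrf1 and Gabpa, and the mitochondrial DNA-binding protein gene Tfam. They were chosen by name, and all 10 of 10 had a row among the 23930 targets of the table, 1 amplicon each. All 10 also reached a mean of 1 RPM, the level set for testing, as did 11004 targets in all. RPM are the reads of an amplicon scaled to a fixed total for each library.

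The study profiled the tibialis anterior (TA), a fast-twitch shin muscle, in 4 WT and 4 KO libraries. KO mice carried Inducible HSA-Cre/Lox-SDHC, in which Cre is driven by the human skeletal actin promoter, active in muscle fibres, and acts on a floxed Sdhc, a membrane anchor gene of succinate dehydrogenase (complex II). WT mice were littermates with Inducible HSA-Cre/No Lox, so that both groups carried the Cre. All mice were given tamoxifen at 12 weeks of age and were sampled 3 weeks later. The genotype field gives the strain of every WT sample as C57BL/6 and that of the KO samples as C57BL/7, C57BL/8, C57BL/11 and C57BL/12, while the growth protocol speaks of C57/B6 mice throughout. Cells of the muscle other than fibres would not be expected to express this Cre. The labels number the samples but do not say that each is a separate animal, so that p-values measure the spread between these samples.

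PGC-1 coactivators do not bind DNA themselves. They dock on ERR, PPAR and nuclear respiratory factors, which bind the promoters of genes for fatty acid oxidation, the tricarboxylic acid cycle and the respiratory chain. Nrf1 and the factor encoded by Gabpa also act on Tfam, whose product packages mitochondrial DNA and starts its transcription. In skeletal muscle Ppargc1a is known for its rise after endurance exercise and for its higher level in oxidative fibres.

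The libraries held 5983175 to 9119006 reads. Sdhc ranged over 737 to 853 RPM in the WT libraries and over 16.9 to 54.3 RPM in the KO libraries. Markers of fast fibres were abundant, with a summed level over 9 genes of 127900 to 176500 RPM (WT) and 140600 to 182500 RPM (KO). The sum over 6 slow fibre genes was 180.5 to 319 RPM and 223 to 864 RPM, highest in KO4 and KO2. The sums over 7 macrophage genes (39.9 to 192 RPM in WT, 24.9 to 30.7 RPM in KO), 7 fibroblast genes (1066 to 2702 and 434 to 839 RPM), 8 bone and osteoclast genes (407.5 to 6318 and 146 to 374 RPM) and 8 adipocyte genes (227 to 290.2 and 180.2 to 225 RPM) were lower in every KO library than in any WT library. Their part in the results below was not tested, and in whole muscle fewer cells of a type and less RNA per cell cannot be told apart. WT4 and WT1 held the highest sums of bone and osteoclast genes (6318 and 3767 RPM), most of it the collagen gene Col1a1 (5566 and 3440 RPM). Acp5 was also highest in these libraries (329 and 130 RPM), while Phex had the higher mean in KO (1.73 against 0.85 RPM in WT). Fabp4 made up most of the adipocyte sum, and its groups overlapped (200 to 259 RPM in WT, 163 to 213 RPM in KO). The brown fat gene Ucp1 was at 0 reads in all 8 libraries, where 3 reads would be 0.329 to 0.501 RPM.

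No regulator passed the test for a difference between KO and WT muscle. By limma on log2(RPM + 1), with Benjamini-Hochberg (BH) adjustment over all tested genes and a threshold of 0.05, 0 of 10 passed, against 0.0273% of all tested genes. At an unadjusted p under 0.05 there were also 0 of 10, against 9.22% of all genes (0.663% higher and 8.56% lower in KO). In 0 of 10 did the groups fail to overlap, against 5.10% of all genes (0.536% with all KO values above and 4.56% with all below). By edgeR's quasi-likelihood test and by DESeq2 on reads recovered from the RPM values, 0 of 10 passed as well, against 0.00909% and 1.35% of all genes, and 0 of 10 had an unadjusted p under 0.05 in either. The log2 differences, KO minus WT, ran from -0.15 for Ppara to 0.23 for Ppargc1b. The median was 0.01, beside -0.05 over all tested genes, and 6 of 10 lay above 0, beside 40.8% of all genes. The sign of the median depended on single libraries. It was -0.11 without WT1, -0.034 without WT4 and -0.034 without KO2, beside -0.074, -0.053 and -0.064 over all genes. The median of the 10 fell below that of all genes without WT1, and stayed above it without WT4 or KO2. Without WT1 and WT4 it was -0.17, beside -0.097 over all genes, and Gabpa alone (0.19) lay above 0, beside 29.0% of all genes. Under median-ratio scaling 8 of 10 lay above 0, beside 52.3% of all genes. With a filter at a mean of 10 RPM, which all 10 met, 6 of 10 lay above 0, beside 47.3% of all genes.

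**Figure D1:**
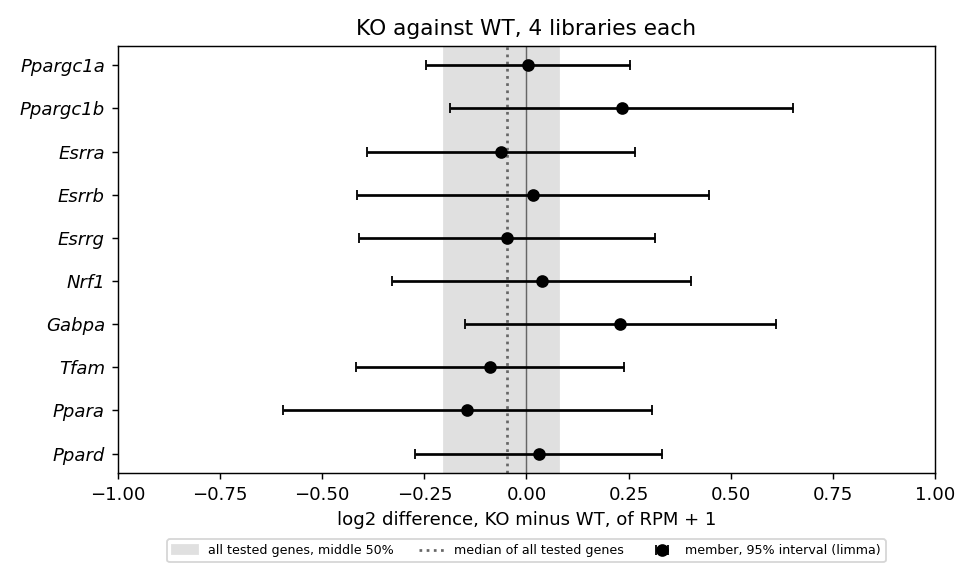
Log2 difference, KO minus WT, of RPM + 1 (x axis) for each regulator (y axis); points are limma estimates from 4 WT and 4 KO libraries, bars are 95% intervals, and the grey band holds the middle 50% of all 11004 tested genes. All 10 intervals include 0, and none reaches a log2 difference of 1 in either direction.

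The intervals bound what these libraries could have missed. All 10 of the 95% intervals exclude a doubling and its inverse, and 7 of 10 lie within 0.5 of 0 on the log2 scale, which is a change of 1.41-fold. The narrowest belonged to Ppargc1a and the widest to Ppara. A level from 1 amplicon sums all transcripts that contain it, and the sources used here give neither the position of the amplicons nor the handling of reads shared by the related ERR genes. Levels are not compared between genes, because amplicons differ in yield.

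Ppargc1a encodes PGC-1alpha, the coactivator that links contraction and energy demand to mitochondrial gene expression. It measured 186, 159, 189.7 and 151 RPM across WT1 to WT4 against 169, 167, 178 and 172 RPM across KO1 to KO4. The KO libraries all lay inside the range of the WT libraries. The means were 172 ± 19.2 RPM for WT and 171 ± 4.88 RPM for KO (SD, n = 4 each), a log2 difference of 0.0037 (SE 0.12, 95% interval -0.24 to 0.25, limma with BH, adjusted p = 1). On the fold scale the interval runs from 0.844 to 1.19. The values rest on 1010 to 1700 reads per library, for which counting error alone is at most 3.15% (1 SD).

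Ppargc1b encodes PGC-1beta, the close relative of PGC-1alpha, with a similar set of receptor partners. It measured 19.3, 26.4, 23.7 and 13.4 RPM across WT1 to WT4 against 23.4, 23.2, 28.7 and 20.5 RPM across KO1 to KO4. The lowest value was in WT4, the highest in KO3, and the groups overlapped. The means were 20.7 ± 5.68 and 23.95 ± 3.44 RPM (SD, n = 4 each), a log2 difference of 0.23 (SE 0.19, interval -0.19 to 0.65, limma with BH, adjusted p = 0.825). The difference depended on WT4, since it was 0.049 without that library and -0.071 without WT1 and WT4 (over all alternatives -0.071 to 0.36, adjusted p 0.611 to 1).

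**Figure D2:**
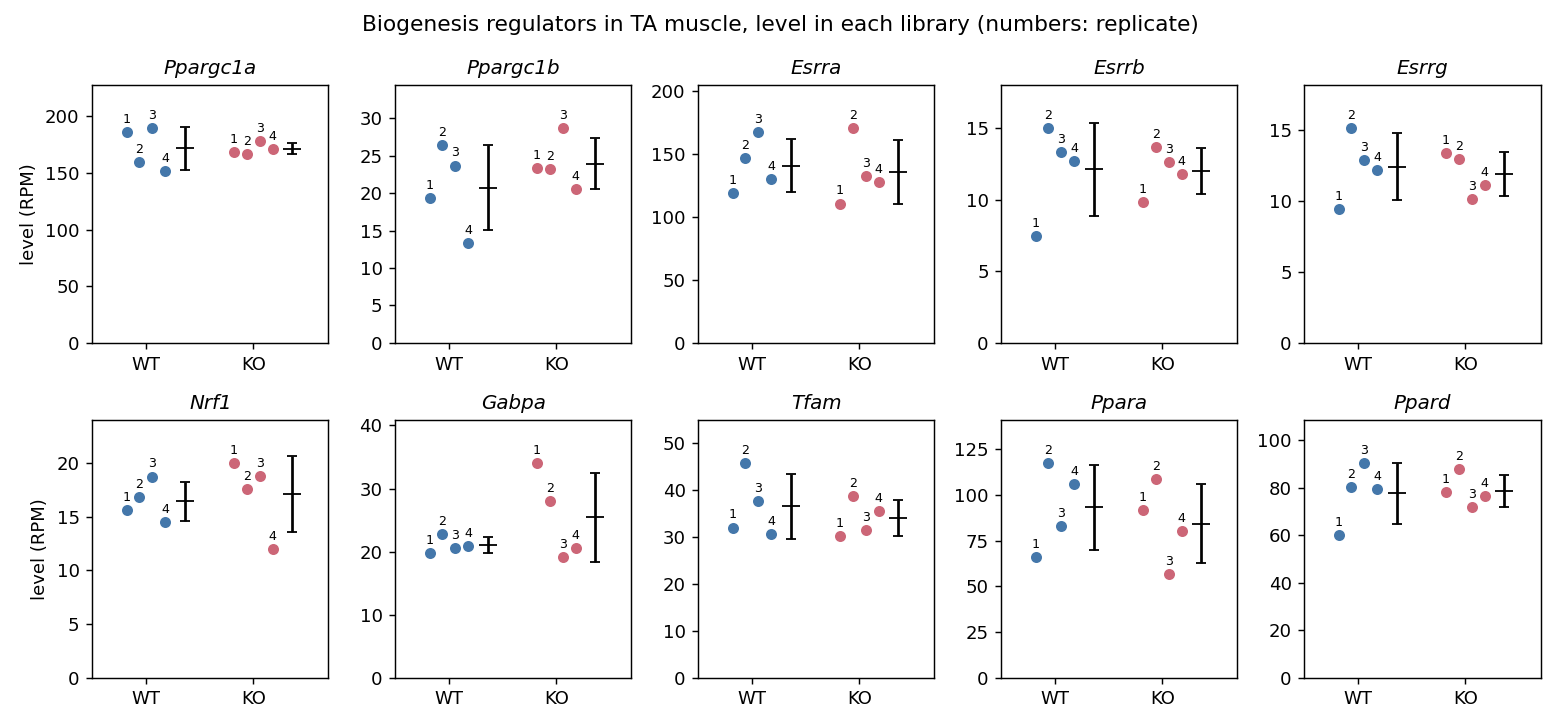
Level of each regulator in RPM (y axes, each from 0) in the 4 WT (blue) and 4 KO (red) libraries; small numbers are replicates, and black marks are the mean with 1 SD. The groups overlap in all 10 panels, with Ppargc1a at 151 to 189.7 RPM (WT) and 167 to 178 RPM (KO).

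The ERR genes encode orphan nuclear receptors that bind DNA without a known natural hormone and are coactivated by PGC-1. Esrra, the form that drives respiratory chain genes, measured 119, 147, 167 and 129.7 RPM across WT1 to WT4 against 110.5, 170.4, 132 and 128 RPM across KO1 to KO4. KO2 held the highest and KO1 the lowest value of all 8 libraries. The means were 141 ± 20.8 and 135 ± 25.3 RPM (SD, n = 4 each), a log2 difference of -0.062 (SE 0.15, interval -0.39 to 0.26, limma with BH, adjusted p = 0.956).

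Esrrg, the receptor of oxidative fibres and heart, measured 9.43, 15.1, 12.9 and 12.2 RPM across WT1 to WT4 against 13.4, 12.9, 10.1 and 11.1 RPM across KO1 to KO4. The highest and lowest values were both in WT libraries. The log2 difference was -0.048 (SE 0.17, interval -0.41 to 0.31, limma with BH, adjusted p = 0.969). Slow fibre genes did not share this order, since their sum was highest in KO4 (864 RPM), where Esrrg was at 11.1 RPM.

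Esrrb, best known from embryonic stem cells, measured 7.46, 15.0, 13.3 and 12.7 RPM across WT1 to WT4 against 9.86, 13.6, 12.6 and 11.8 RPM across KO1 to KO4. WT1 and KO1 were the lowest of their groups. The means were 12.1 ± 3.25 and 12.0 ± 1.60 RPM (SD, n = 4 each), with a log2 difference of 0.017 (interval -0.41 to 0.45, limma with BH, adjusted p = 0.997). With 59 to 105 reads per library this was the gene with the fewest reads, and counting error alone reaches 13.0% (1 SD).

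The PPAR receptors are activated by fatty acids and bind DNA together with a retinoid X receptor. Ppara, the receptor that drives fatty acid oxidation in liver, heart and muscle, measured 66.2, 118, 82.9 and 106 RPM across WT1 to WT4 against 91.8, 109, 56.8 and 80.4 RPM across KO1 to KO4. Both groups spanned a wide and shared range, and WT1 and KO3 were lowest. The means were 93.2 ± 23.0 and 84.4 ± 21.7 RPM (SD, n = 4 each), a log2 difference of -0.15 (SE 0.21, interval -0.60 to 0.31, limma with BH, adjusted p = 0.922). It was 0.030 without KO3 and -0.30 without WT1.

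Ppard, the PPAR form known for oxidative remodelling of muscle, measured 60.0, 80.6, 90.6 and 79.4 RPM across WT1 to WT4 against 78.4, 87.9, 71.8 and 76.5 RPM across KO1 to KO4. Only WT1 lay below all KO libraries. The means were 77.7 ± 12.8 and 78.6 ± 6.76 RPM (SD, n = 4 each), a log2 difference of 0.030 (SE 0.14, interval -0.27 to 0.33, limma with BH, adjusted p = 0.982).

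Nrf1 encodes nuclear respiratory factor 1, which binds promoters of respiratory chain and mitochondrial import genes. It measured 15.7, 16.9, 18.8 and 14.5 RPM across WT1 to WT4 against 20.1, 17.6, 18.8 and 12.0 RPM across KO1 to KO4. KO1 was the highest and KO4 the lowest of the 8 libraries. The log2 difference was 0.037 (SE 0.17, interval -0.33 to 0.40, limma with BH, adjusted p = 0.981).

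Gabpa encodes the DNA-binding subunit of GA-binding protein (GABP), whose partner subunits come from Gabpb1 and Gabpb2. It measured 19.7, 22.7, 20.5 and 20.95 RPM across WT1 to WT4 against 34.1, 28.0, 19.1 and 20.5 RPM across KO1 to KO4. KO1 and KO2 lay above every WT library, while KO3 and KO4 lay within or below the WT range. The means were 21.0 ± 1.26 and 25.4 ± 6.99 RPM (SD, n = 4 each), a log2 difference of 0.23 (SE 0.18, interval -0.15 to 0.61, limma with BH, adjusted p = 0.803). This was the smallest adjusted p of the 10 genes, and it was 0.534 by edgeR (BH) and 0.6 by DESeq2 (BH). The estimate ranged from 0.080 without KO1 to 0.35 without KO3, and over all alternatives the adjusted p was 0.534 to 1.

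Tfam, the mitochondrial DNA-packaging factor and a target of the nuclear respiratory factors, measured 32.0, 45.9, 37.7 and 30.6 RPM across WT1 to WT4 against 30.3, 38.7, 31.6 and 35.5 RPM across KO1 to KO4. WT2 was the highest, and the other 7 libraries of both groups were intermixed. The means were 36.5 ± 6.93 and 34.0 ± 3.84 RPM (SD, n = 4 each), a log2 difference of -0.089 (SE 0.15, interval -0.42 to 0.24, limma with BH, adjusted p = 0.932).

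The order of the libraries was not the same in all regulators. WT1 held the lowest value of 3 regulators (Esrrb, Esrrg and Ppard), and WT2 the highest of 4 (Esrrb, Esrrg, Tfam and Ppara). WT1 also held the second highest sum of bone genes, 3767 RPM against 941 RPM in WT2, and the part of this difference in the values was not tested. The SD was smaller among KO than among WT libraries for 7 of 10 genes. The share of all tested genes with a smaller SD in KO was not counted, so this is not read as a trait of the regulators.

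**Figure D3:**
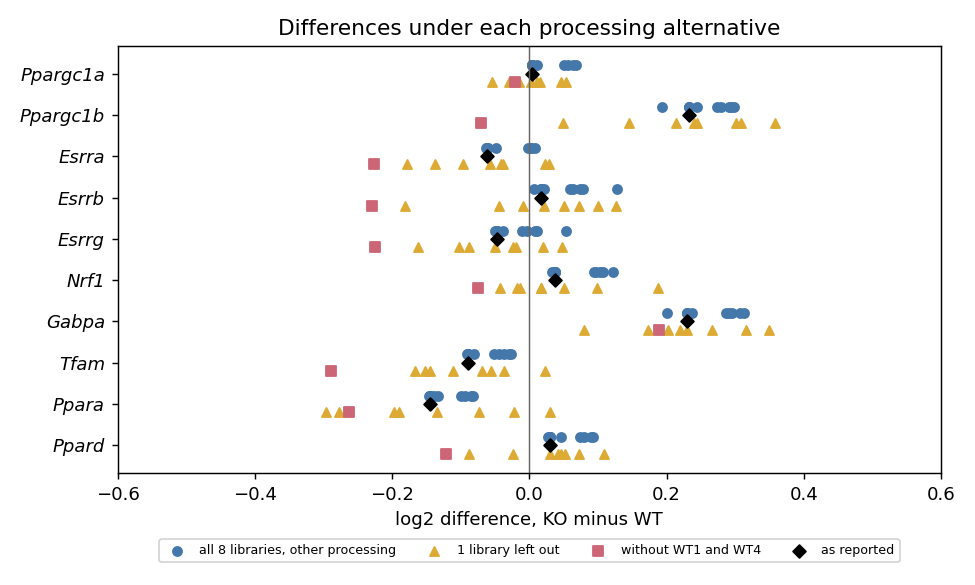
Log2 difference, KO minus WT (x axis), of each regulator (y axis) as reported (black), under other processing of all 8 libraries (blue), with 1 library left out (yellow) and without WT1 and WT4 (red). The values for Gabpa stay between 0.080 and 0.35, while those of Esrrb run from -0.23 without WT1 and WT4 to 0.13.

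The circuit is wired through short DNA words near gene starts, and 3 windows are shown because each holds a word read by a factor of the circuit or of muscle. RefSeq windows of GRCm38.p6, 250 bases before to 50 after a start, were matched for 9 of the 10 genes (14 windows). Both strands were searched for TNAAGGTCA (ERR), AGGTCA repeated after any 1 base (PPAR), GCGCATGCG (Nrf1), CCGGAAGT (GABP), TGACGTCA (cyclic AMP response element) and TATTTATAG (MEF2, a muscle factor). Capitals mark the match. The Nrf1 word matched on both strands, 1 base apart, and no match overlapped another word. The Tfam window (chr10:71237995-71238294, minus strand) holds the GABP word 47 bases before the start, the Ppara window (chr15:85735526-85735825, plus strand) holds the Nrf1 word 31 bases before it, and the first of 4 Esrrg windows (chr1:187608756-187609055, plus strand) holds the MEF2 word 21 bases before it.
Tfam: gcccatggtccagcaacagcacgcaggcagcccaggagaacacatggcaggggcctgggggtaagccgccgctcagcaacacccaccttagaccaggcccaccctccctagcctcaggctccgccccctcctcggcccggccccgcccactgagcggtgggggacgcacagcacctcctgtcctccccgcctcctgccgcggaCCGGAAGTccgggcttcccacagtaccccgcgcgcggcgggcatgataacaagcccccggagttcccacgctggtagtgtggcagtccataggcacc
Ppara: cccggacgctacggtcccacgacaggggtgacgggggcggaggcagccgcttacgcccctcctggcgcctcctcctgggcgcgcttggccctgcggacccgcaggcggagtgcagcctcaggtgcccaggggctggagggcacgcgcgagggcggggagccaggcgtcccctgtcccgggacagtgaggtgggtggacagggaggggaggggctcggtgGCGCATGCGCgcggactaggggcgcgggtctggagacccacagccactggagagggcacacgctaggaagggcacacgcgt
Esrrg: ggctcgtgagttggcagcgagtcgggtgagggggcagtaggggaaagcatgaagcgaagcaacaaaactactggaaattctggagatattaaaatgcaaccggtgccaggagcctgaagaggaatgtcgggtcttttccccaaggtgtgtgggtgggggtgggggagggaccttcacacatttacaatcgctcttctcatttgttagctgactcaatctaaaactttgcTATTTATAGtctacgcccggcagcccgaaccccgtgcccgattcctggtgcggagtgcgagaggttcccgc

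Of all 32851 windows, 3.89% held the GABP word, 1.75% the Nrf1 word and 0.451% the MEF2 word. The ERR word (1.28% of all windows), the PPAR word (0.0396%) and the cyclic AMP word (1.79%) were in 0 of the 14 windows, which says only that these letters are not in these windows. Neither the gene of the factor nor the gene beside its word passed the test in the pairs Gabpa and Tfam, Nrf1 and Ppara, and Mef2c and Esrrg. Mef2c, an abundant MEF2 gene, had a mean of 219.5 ± 50.5 RPM over WT and 230.1 ± 71.3 RPM over KO libraries (SD, n = 4 each; log2 difference 0.050, limma with BH, adjusted p = 0.978).

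Partner and target genes were then read from 9 lists with 102 tested genes in all. Of these, 0 passed in limma, edgeR or DESeq2. At an unadjusted p under 0.05 there were 4 of 102 in limma (3.92%, against 9.22% of all genes). Of these, 3 were lower and 1 higher in KO, beside 8.56% and 0.663% of all genes. In 3 of 102 the groups did not overlap (2.94%, against 5.10%). All KO values lay above in 2 and below in 1, beside 0.536% and 4.56% of all genes. Above 0 were 63 of 102 (61.8%, beside 40.8% of all genes), with a median log2 difference of 0.053 beside -0.047 over all tested genes. The median was -0.011 without WT1, -0.0023 without KO1 and -0.089 without WT1 and WT4, beside -0.074, -0.071 and -0.097 over all genes. Without WT1 and WT4, 28 of 101 tested lay above 0, beside 29.0% of all genes. With a filter at a mean of 10 RPM, 56 of 90 lay above 0, beside 47.3% of all genes. Under median-ratio scaling, 75 of 102 did, beside 52.3%. These values over all genes are also the background of each list below. Over all genes the median was also -0.041 without WT2, -0.021 without WT3, -0.053 without WT4 and -0.025 without KO4. It was 0.011, 0.0073 and 0.035 under median-ratio, TMM and quantile scaling, 0.0053 in DESeq2 and -0.0098 with a filter at 10 RPM.

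Of 10 coactivator partners, 7 were above 0 (median 0.066, but -0.013 without WT1, -0.043 without KO1 and -0.054 without WT1 and WT4). Perm1, a muscle protein induced by PGC-1 and ERR, had a mean of 314 ± 58.6 RPM over WT and 338 ± 71.7 RPM over KO libraries (SD, n = 4 each), and Ep300, a histone acetyltransferase that PGC-1alpha recruits, averaged 68.1 ± 11.2 and 76.9 ± 5.14 RPM. Of 6 tested corepressors and inhibitors, 2 were above 0 (median -0.090, and 0.016 under quantile scaling). Ncor1, a nuclear receptor corepressor that restrains PPAR and ERR in muscle, measured 203, 224, 189.9 and 194 RPM across WT1 to WT4 against 204, 160.3, 120.3 and 140.2 RPM across KO1 to KO4. Of the KO libraries KO1 alone lay inside the WT range, and the log2 difference was -0.40 (interval -0.73 to -0.071, limma with BH, adjusted p = 0.385). Nrip1, which represses ERR and PPAR targets in muscle, averaged 209 ± 40.3 and 171 ± 41.1 RPM (log2 difference -0.29, adjusted p = 0.719).

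Of 14 genes that act upstream of Ppargc1a, 10 were above 0 (median 0.054, and 0.0004 without KO1 and -0.0050 without WT1 and WT4). Sirt1, the deacetylase of PGC-1alpha, measured 2.63, 4.86, 3.59 and 2.68 RPM across WT1 to WT4 against 5.35, 5.91, 3.59 and 4.63 RPM across KO1 to KO4. Its log2 difference was 0.41 (interval -0.035 to 0.86, limma with BH, adjusted p = 0.597). Sirt1 rests on fewer reads in each library than Esrrb, for which counting error alone reaches 13.0% (1 SD). Ppp3ca, a catalytic subunit of the calcium-dependent phosphatase calcineurin, measured 256, 305.5, 306 and 282 RPM across WT1 to WT4 against 339, 357, 308 and 335 RPM across KO1 to KO4. Each KO value lay over each WT value, by a small margin between KO3 and WT3, and the gene did not pass (log2 difference 0.22, limma with BH, adjusted p = 0.605). Yy1 had the lower mean in KO, 60.7 ± 4.8 RPM against 70.9 ± 5.5 RPM in WT (log2 difference -0.22, limma with BH, adjusted p = 0.632). Of 6 dimer partners with Pparg, 4 were above 0 (median 0.048, but -0.0052 without WT2, -0.020 without WT4 and -0.065 without WT1 and WT4). Rxra, the retinoid X receptor partner of PPAR, averaged 409.5 ± 91.1 and 422 ± 25.6 RPM. Pparg, the fat cell member of the PPAR family, averaged 3.21 ± 0.648 and 2.59 ± 1.12 RPM (log2 difference -0.28, adjusted p = 0.841), beside the adipocyte sum of 227 to 290.2 RPM (WT) and 180.2 to 225 RPM (KO). Most of that sum was Fabp4.

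Of 13 tested genes of mitochondrial DNA maintenance, which work with Tfam, 8 were above 0 (median 0.050, and 0.0008 with a filter at 10 RPM and -0.0007 without WT1 and WT4). Polrmt, the mitochondrial RNA polymerase, had a mean of 55.1 ± 4.48 RPM over WT and 45.3 ± 7.42 RPM over KO libraries (SD, n = 4 each; log2 difference -0.29, interval -0.59 to 0.016, limma with BH, adjusted p = 0.579). Its elongation factor gene Tefm averaged 15.8 ± 2.52 and 20.9 ± 5.33 RPM (log2 difference 0.36, adjusted p = 0.615), and Top1mt, the mitochondrial topoisomerase, 41.0 ± 4.06 and 48.6 ± 3.15 RPM (0.24, adjusted p = 0.605). The signs of these differences were mixed, none passed, and all their intervals include 0.

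**Figure D4:**
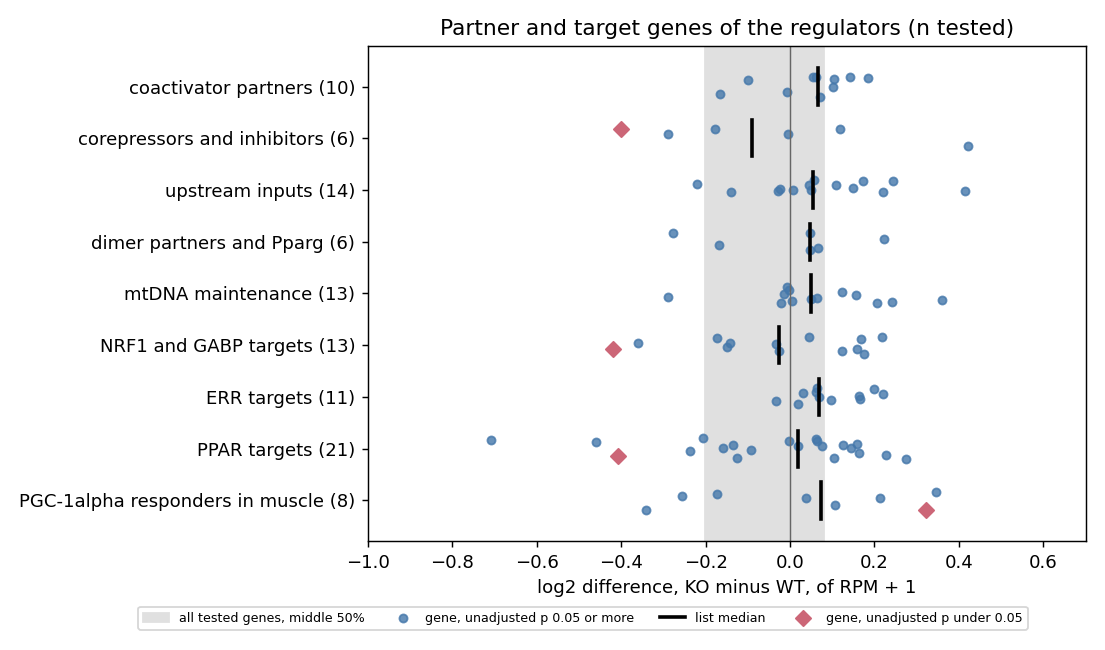
Log2 difference, KO minus WT, of RPM + 1 (x axis) for the tested genes of each list (y axis, number tested in brackets); points are genes, red diamonds have an unadjusted p under 0.05 in limma, black bars are list medians and the grey band is the middle 50% of all tested genes. The 9 medians lie between -0.090 and 0.072, and 4 of 102 genes are red.

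Of 13 tested targets of Nrf1 and GABP, 6 were above 0 (median -0.027, and 0.038, 0.034 and 0.017 under median-ratio scaling, TMM scaling and DESeq2). Without WT2, WT3 or KO4 the median was 0.055, 0.061 or 0.057, and without WT1 and WT4 it was -0.11. Cox6a1, the ubiquitous form of a cytochrome oxidase subunit that has a separate muscle form, measured 146, 153, 138 and 179 RPM across WT1 to WT4 against 135, 129, 91.6 and 107 RPM across KO1 to KO4. Each KO value lay under each WT value, and the gene did not pass (log2 difference -0.42, interval -0.73 to -0.11, limma with BH, adjusted p = 0.307). The sums of macrophage, fibroblast, adipocyte and bone genes were likewise lower in every KO library, and their part in this difference was not tested. Cox5b, another subunit, averaged 726 ± 133 and 584.5 ± 214 RPM (log2 difference -0.36, adjusted p = 0.679), and Cox7a2 averaged 351 ± 48.5 and 405 ± 18.8 RPM (0.22, adjusted p = 0.664).

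Of 11 tested ERR targets, 10 were above 0 (90.9%, beside 40.8% of all genes), with a median of 0.070. All 11 had means over 10 RPM, and with a filter at that level 47.3% of all genes lay above 0. An unadjusted p under 0.05 in limma was reached by 0 of 11, beside 9.22% of all genes. Acadm, the medium-chain acyl-CoA dehydrogenase, had a mean of 276 ± 23.2 RPM over WT and 325 ± 58.4 RPM over KO libraries (SD, n = 4 each; log2 difference 0.22, interval -0.080 to 0.52, limma with BH, adjusted p = 0.727). Cs, citrate synthase, averaged 839.8 ± 129 and 936 ± 88.0 RPM (0.16, adjusted p = 0.821), and Atp5b, the catalytic subunit of ATP synthase, 3202 ± 278 and 3580 ± 216 RPM (0.16, adjusted p = 0.797). The sign of the ERR target median depended on WT1. It was -0.0058 without WT1 and -0.065 without WT1 and WT4, above the medians of -0.074 and -0.097 over all genes.

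Of 21 tested PPAR targets, 11 were above 0 (median 0.020, but -0.079 without WT1, -0.024 without WT3, -0.037 without KO1 and -0.21 without WT1 and WT4). Pdk4, the kinase that shuts pyruvate dehydrogenase, varied more within than between the groups, with 217, 823, 243 and 198.5 RPM across WT1 to WT4 against 355, 112, 523 and 265 RPM across KO1 to KO4. Its log2 difference was -0.16 (interval -1.16 to 0.85, limma with BH, adjusted p = 0.961). Plin4, a lipid droplet protein, averaged 248 ± 42.9 and 188 ± 41.7 RPM (log2 difference -0.41, interval -0.77 to -0.049, adjusted p = 0.43), and Ucp2, an uncoupling protein also expressed by macrophages, measured 40.7, 54.3, 35.1 and 82.8 RPM across WT1 to WT4 against 26.3 to 48.5 RPM over the KO libraries. WT4, the highest for Ucp2, also held the highest macrophage sum (192 RPM), whose part in this value was not tested. Acadvl, the very long-chain acyl-CoA dehydrogenase, averaged 608.5 ± 124 and 703 ± 65.4 RPM (0.23, adjusted p = 0.753).

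Of 8 tested genes that respond to PGC-1alpha in muscle, 5 were above 0 (median 0.072, but -0.056 without WT4 and -0.14 without WT1 and WT4). Gpt2, the mitochondrial alanine aminotransferase, measured 70.1, 95.1, 97.8 and 83.2 RPM across WT1 to WT4 against 106, 126, 101 and 99.0 RPM across KO1 to KO4. Each KO value lay over each WT value, and the gene did not pass (log2 difference 0.32, interval 0.025 to 0.62, limma with BH, adjusted p = 0.456). Vegfb, a growth factor coexpressed with mitochondrial genes, averaged 158 ± 42.9 and 195 ± 13.7 RPM (0.35, adjusted p = 0.612), and Mb, myoglobin, 5553 ± 1094 and 4884 ± 503 RPM (-0.17, adjusted p = 0.852).

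The genes whose levels over the 8 libraries were most like those of 3 regulators were found by the distance between standardized log2 values, where 0 is the same shape. For Ppargc1a the nearest were Rxra (0.642), Pogk (0.711) and Snrpc (0.716), beside a median distance of 3.87 over all tested genes. Rxra shared with Ppargc1a its highest values in WT3 (515 RPM) and in KO3 and WT1 (459.5 and 455.5 RPM) and its lowest in WT4 (325 RPM). For Esrra the nearest were Ndc1 (0.931), Atg4b (0.995) and Itga3 (1.01), beside a median of 3.52. For Esrrg they were Usp36 (0.355), Tbc1d1 (0.486) and Rexo1 (0.552), beside a median of 3.23. With 11004 genes over 8 libraries, these distances are descriptions only.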

How the data were processed

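TA muscle RNA was read in 8 libraries with the Ion AmpliSeq Transcriptome Mouse panel, 1 amplicon per gene, per the labels. The authors deposited RPM values. Each library had been scaled to its own total of target reads. Transcriptome Analysis Console is the software given by the submitters' processing notes. For the aligner, genome build and counting rule, nothing is given in the sources used here. Whole reads were recovered from the RPM steps. In each library 100% of values came within 0.1 of a whole read. Library totals were 5983175 to 9119006 reads. Intervals from reads cover counting error only.

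Columns were matched to samples by barcode. log2(RPM + 1) was compared between 4 KO and 4 WT libraries with limma 3.58.1 (R 4.3.3), intensity trend, over 11004 genes with a mean of at least 1 RPM, two-sided, BH adjusted. On this scale a fold change understates that of low genes. On the recovered reads edgeR 4.0.16 called 1 gene and DESeq2 1.42.0 called 149. The procedure was tested on simulated data. Alternatives were a pseudocount of 0.1 or 5 RPM, a filter at 10 RPM or none, median-ratio, TMM and quantile scaling, the replicate number as a block, each library left out in turn, and the comparison without WT1 and WT4. Each pair of libraries within a group differed beyond counting error (chi-square over its degrees of freedom 12.3 to 34.4).

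The regulators and lists were chosen with earlier results of these data known. From each list the 4 genes with the smallest p and the 2 most abundant could be named, and not all are given. Of 118 listed genes 107 had a row, and the other 11 were not analysed here.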

Additional observations from a re-analysis of the deposited data

How the results depend on the processing

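In all 19 alternatives 0 of 10 regulators passed the threshold, and Gabpa kept a positive value (0.080 to 0.35). Other uncalled values changed sign. Esrra was 0.0019 under median-ratio scaling, 0.0018 in edgeR and 0.0077 in DESeq2, and Esrrg was 0.012, 0.0082 and 0.054 under median-ratio, TMM and quantile scaling. These scalings moved the median of all genes by 0.054 to 0.081. Without WT1 and WT4 the log2 differences were -0.021 for Ppargc1a, -0.071 for Ppargc1b, -0.23 for Esrrb, -0.075 for Nrf1, -0.12 for Ppard, -0.29 for Tfam, -0.26 for Ppara, -0.23 for Esrra and -0.22 for Esrrg, so that 9 of 10 lay below 0, and the median of the PGC-1alpha responders was -0.14. Leaving out 1 library at a time gave -0.054 to 0.054 for Ppargc1a, -0.18 to 0.028 for Esrra, -0.18 to 0.13 for Esrrb, -0.16 to 0.047 for Esrrg, -0.043 to 0.19 for Nrf1, -0.17 to 0.023 for Tfam, -0.30 to 0.030 for Ppara and -0.087 to 0.11 for Ppard. The cause was not tested. The count of all genes past the threshold, 3 as reported, was 6 with no filter, 1 under median-ratio, TMM and quantile scaling, in edgeR and without WT1 and WT4, 149 in DESeq2, and 1 to 130 with 1 library left out (130 without WT3, 10 without KO1). With the replicate block it was 1, and the regulators' differences were the same by construction, with 0 of 10 past the threshold. Same-numbered libraries did not deviate together in every pair (r = 0.003, 0.257, 0.125 and 0.105), so the numbers were not taken as pairs. Esrrb and Esrrg rest on 59 to 106 reads per library, where counting error alone reaches 13.0% (1 SD).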

Other observations

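The spread of the regulators within a group was not uniform. The coefficient of variation of Ppargc1a was 11.2% among WT and 2.85% among KO libraries, the latter no larger than the counting error of its lowest read count (3.15%). Gabpa showed the opposite order, 6.01% among WT and 27.5% among KO libraries, with KO1 at 34.1 RPM and KO2 at 28.0 RPM. With 4 libraries per group these spreads are given as values, and their difference was not tested.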
